A study of Mus musculus with 2 samples.

Results

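Cluster 10 of the authors' deposited clustering holds 476 of the 12544 annotated cells of mouse dural meninges, the outermost membrane of the brain's coverings. Its members are all cells to which the deposited annotation gives the cluster number 10: 249 of 6594 cells in the KO library and 227 of 5950 cells in the het library. KO mice are Il33mcherry/mcherry and lack functional IL-33, and het mice are Il33mcherry/+, so both genotypes carry the H2B-mCherry allele at Il33. Mice were at postnatal day 14 (2 weeks of age), and the labels state that meninges of 5 to 8 animals were pooled for each sex and genotype. Tissue of both genotypes was digested at 37 degrees Celsius for 30 minutes. Sorted CD45+CD11b- cells, sorted gp38+CD31- cells and total viable cells were mixed 1:1:2, so shares of cell classes depend in part on the sort. RNA was measured by droplet sequencing, in which a unique molecular identifier (UMI) marks each captured transcript, and levels below are UMIs per 1000000 UMIs of the same cells and library (CPM). With 1 library per genotype no difference has a replicate check, and no test was made. Every interval is an exact 95% interval that covers counting error only.

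Replication-dependent histones are the core and linker proteins that package newly copied DNA. Their genes stand in tandem clusters, are transcribed mainly in S phase, and give mRNAs that end in a stem-loop bound by Slbp rather than in a poly(A) tail. How fully the droplet method captured mRNAs without such a tail was not tested. The histone levels below are therefore those of captured transcripts, which may differ by gene, cell state or library. In the B lineage, signalling through the pre-B receptor, whose surrogate light chain is made of Igll1 and Vpreb proteins, drives a burst of division in large pre-B cells before Rag1 and Rag2 rearrange the light chain genes in resting small pre-B cells.

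The cells carried the B-lineage genes of the working label. Over cluster 10, 9 of 9 B cell markers (Cd79a, Cd79b, Ebf1, Pax5, Vpreb1, Vpreb3, Igll1, Cd24a, Blnk) were detected, and the median cell had UMIs of 7 of them in each library, against 1 of them in the fibroblasts of cluster 0. The S-phase part of the label was not borne out by the deposited phase calls: 232 of 249 KO cells (93.2%) and 192 of 227 het cells (84.6%) were called G2M, and 17 (6.83%) and 30 (13.2%) were called S. The deposited S score had medians of 0.81 in KO cells and 0.80 in het cells, below those of the cycling B-lineage cells of cluster 6 (1.52 KO, 1.63 het). The gene lists behind these calls and scores were not stated in the labels or files, so it is unknown whether histone genes enter them. On the calls as deposited, the cells are named histone-high cycling B cell-like cells here, without a phase. Cluster 6, the nearest class, holds pro-B and pre-B cells in cycle, cluster 1 holds small pre-B cells and cluster 2 holds maturing B cells.

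Cluster 10 held 3196685 UMIs in the KO library and 2970477 in the het library. The median cell had 11491 UMIs and 3036 genes in KO, and 11540 UMIs and 2997 genes in het, so the libraries were close in depth. Cells of cluster 6 were deeper (medians 19368 KO and 19690 het), and those of cluster 1 shallower (4178 KO and 3934.5 het). None of the cell barcodes of cluster 10 was shared between the libraries (0 cells). Il33, the altered gene, had 1 UMI in KO and 29 UMIs in het cells of cluster 10, against 24.5 CPM in KO and 110 CPM in het fibroblasts of cluster 0, and Il1rl1, which encodes the IL-33 receptor, had 2 and 1 UMIs in cluster 10. Before the results, 6 KO and 11 het cells stand apart: each held 50 or more UMIs over 52 marker genes of stromal, myeloid, granulocyte progenitor and T, NK or innate lymphoid cells. They are called high other-lineage cells below, and values that rest on them are given with and without them; this limit was chosen after the data were seen.

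The promoters of the leading histone genes are shown because these genes define the cluster and share short promoter motifs. Each line gives the 200 bases before the RefSeq start of the gene (GRCm38.p6), 5' to 3' on the gene's strand, with matches on either strand in capitals to the CCAAT box (CCAAT), the TATA box (spelled TATAAA), the octamer (spelled ATTTGCAT) or the H1 box (spelled AAACACA). Hist1h1b (RefSeq H1f5, linker histone H1, chr13:21780626-21780825, minus strand) has matches to the CCAAT box, the TATA box and the H1 box. Hist1h2ae (RefSeq H2ac8, histone H2A, chr13:23571221-23571420, minus strand) has matches to the CCAAT box, the TATA box and the octamer and shares its window with the divergent H2B gene Hist1h2bg. The TATA box match in this window reads on the strand of Hist1h2bg, not on that of Hist1h2ae. Hist1h4d (RefSeq H4c4, histone H4, chr13:23581368-23581567, plus strand) has matches to the CCAAT box and the TATA box.
Hist1h1b: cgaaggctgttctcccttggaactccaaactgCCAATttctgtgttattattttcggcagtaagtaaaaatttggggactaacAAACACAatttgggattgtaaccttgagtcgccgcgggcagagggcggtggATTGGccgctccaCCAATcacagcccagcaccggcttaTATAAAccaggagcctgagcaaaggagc
Hist1h2ae: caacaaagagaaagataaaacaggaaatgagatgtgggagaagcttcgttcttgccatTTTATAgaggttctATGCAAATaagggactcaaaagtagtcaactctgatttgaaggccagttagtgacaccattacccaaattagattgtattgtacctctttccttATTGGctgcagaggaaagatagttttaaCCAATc
Hist1h4d: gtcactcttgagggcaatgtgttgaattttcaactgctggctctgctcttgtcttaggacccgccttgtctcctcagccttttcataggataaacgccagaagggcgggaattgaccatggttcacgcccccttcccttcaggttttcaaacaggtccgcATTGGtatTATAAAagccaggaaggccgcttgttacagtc

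Of the 65 replication-dependent histone genes in the table, 57 matched 1 RefSeq promoter. CCAAT stood in 46 of the 57 windows (80.7%) against 30.0% of 27025 promoters of the same length. It was found in 16 of 16 H2A, 13 of 13 H2B and 6 of 6 H1 windows, but in 3 of 12 H4 windows. TATAAA stood in 24 windows (42.1%, against 10.6% of all promoters). The octamer ATTTGCAT was found in 11 windows (19.3%, against 1.39%), all of them H2A (6) or H2B (5), and AAACACA in 7 (12.3%, against 4.74%), of which 5 were H1. The longer TTTGGCGC was found in 0 histone windows and in 0.359% of all promoters. Divergent H2A and H2B genes share parts of their windows, so these counts are not independent of each other, and a match is a run of letters, not a shown binding site.

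Replication-dependent histones set the cells of cluster 10 apart. Together they took 16318 CPM in KO and 12618 CPM in het cells of cluster 10, against 4712 CPM (KO) and 4385 CPM (het) in cluster 6, 1007 and 894 CPM in cluster 1, and 476 and 393 CPM in cluster 2. The per-cell share of UMIs from these genes had a lowest value of 0.322%, a median of 1.78% and a highest value of 3.05% in KO cells, and of 0.00528%, 1.40% and 2.76% in het cells. At least 1% of UMIs was histone in 225 of 249 KO cells (90.4%) and 195 of 227 het cells (85.9%) of cluster 10. In cluster 6 that level was reached by 41 of 328 KO cells (12.5%) and 43 of 319 het cells (13.5%). In clusters 1 and 2 it was reached by 0 cells, which allows up to 0.602% of cells in each library of either cluster. The medians were far apart, but single cells of cluster 6 reached 2.30% (KO) and 2.41% (het), so the clusters overlapped over most of the range of cluster 10. The median cell had UMIs of 28 different histone genes in KO and 26 in het, against 10 and 13 in cluster 6. The genes that formed the clusters include these, so the contrast describes the cluster and is not a test.

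**Figure D1:**
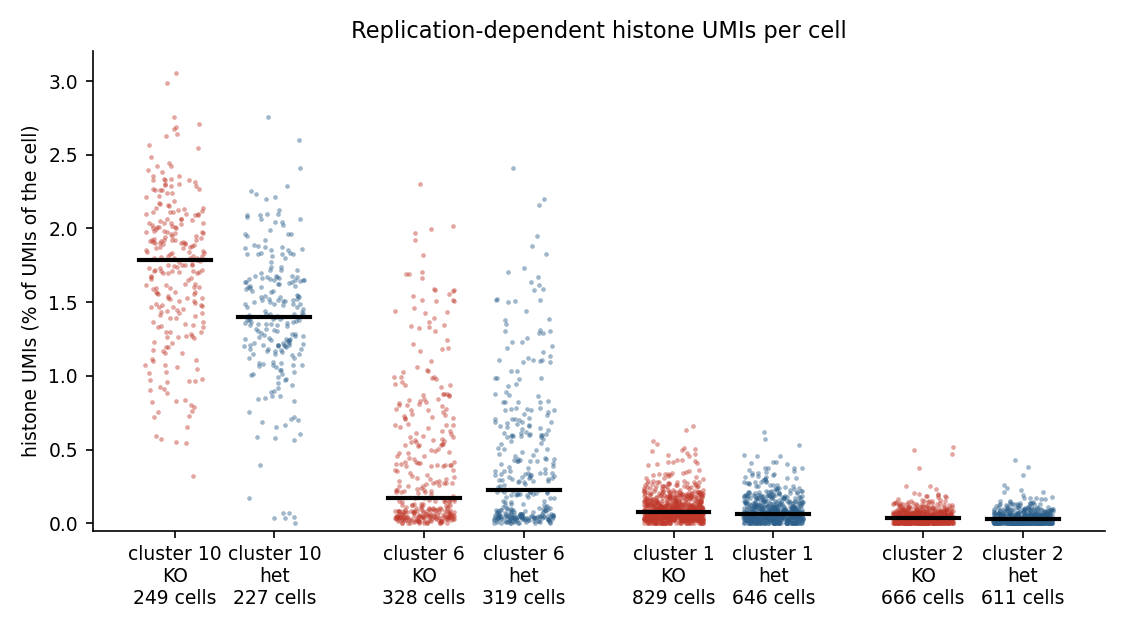
Percent of each cell's UMIs from 65 replication-dependent histone genes in clusters 10, 6, 1 and 2, with KO cells left of het cells, 1 point per cell and a black line at the median. The medians in cluster 10 were 1.78% (KO) and 1.40% (het), and cells of cluster 6 spread from 0 to 2.30% (KO) and 2.41% (het).

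Hist1h2ap, an H2A gene and the most abundant replication-dependent histone in KO cells, had 3349 CPM in KO and 2380 CPM in het cells of cluster 10, against 876 and 731 CPM in cluster 6 and 21.1 and 9.88 CPM in cluster 1. Hist1h1b, the most abundant in het cells, had 2927 and 2485 CPM, against 1153 and 1067 CPM in cluster 6. Hist1h2ae had 2702 and 1944 CPM, against 549 and 523 CPM in cluster 6. Many histone genes are near copies of one another, so reads may be split between them and the level of a single copy is uncertain. Among genes with at least 100 UMIs over clusters 10 and 6 in each library, 6.27% of 7036 were at least 1.5-fold higher in cluster 10 in both libraries and 6.82% were at least 1.5-fold lower. Of the histone genes, 38 passed that minimum, and 38 of these 38 were at least 1.5-fold higher in both libraries, with median log2 ratios of 1.60 (KO) and 1.28 (het). The minimum itself favours genes that are high in one of the clusters. Against cluster 1, 30 of 32 histone genes were higher by that measure (15.7% of 5514 genes), and against cluster 2, 32 of 33 (17.3% of 5791).

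The histone genes that stood out less were those also seen in resting B cells. Hist1h1c, a linker histone, had 430 CPM in KO and 399 CPM in het cells of cluster 10 and still 326 and 306 CPM in cluster 1. Hist1h2bc had 350 and 332 CPM in cluster 10 against 152 and 128 CPM in cluster 1. Hist3h2a was lower in cluster 10 (117 and 100 CPM) than in cluster 1 (171 and 170 CPM). These genes lie outside the pattern of Hist1h2ap, which differed between cluster 10 and cluster 1 by more than any of them.

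**Figure D2:**
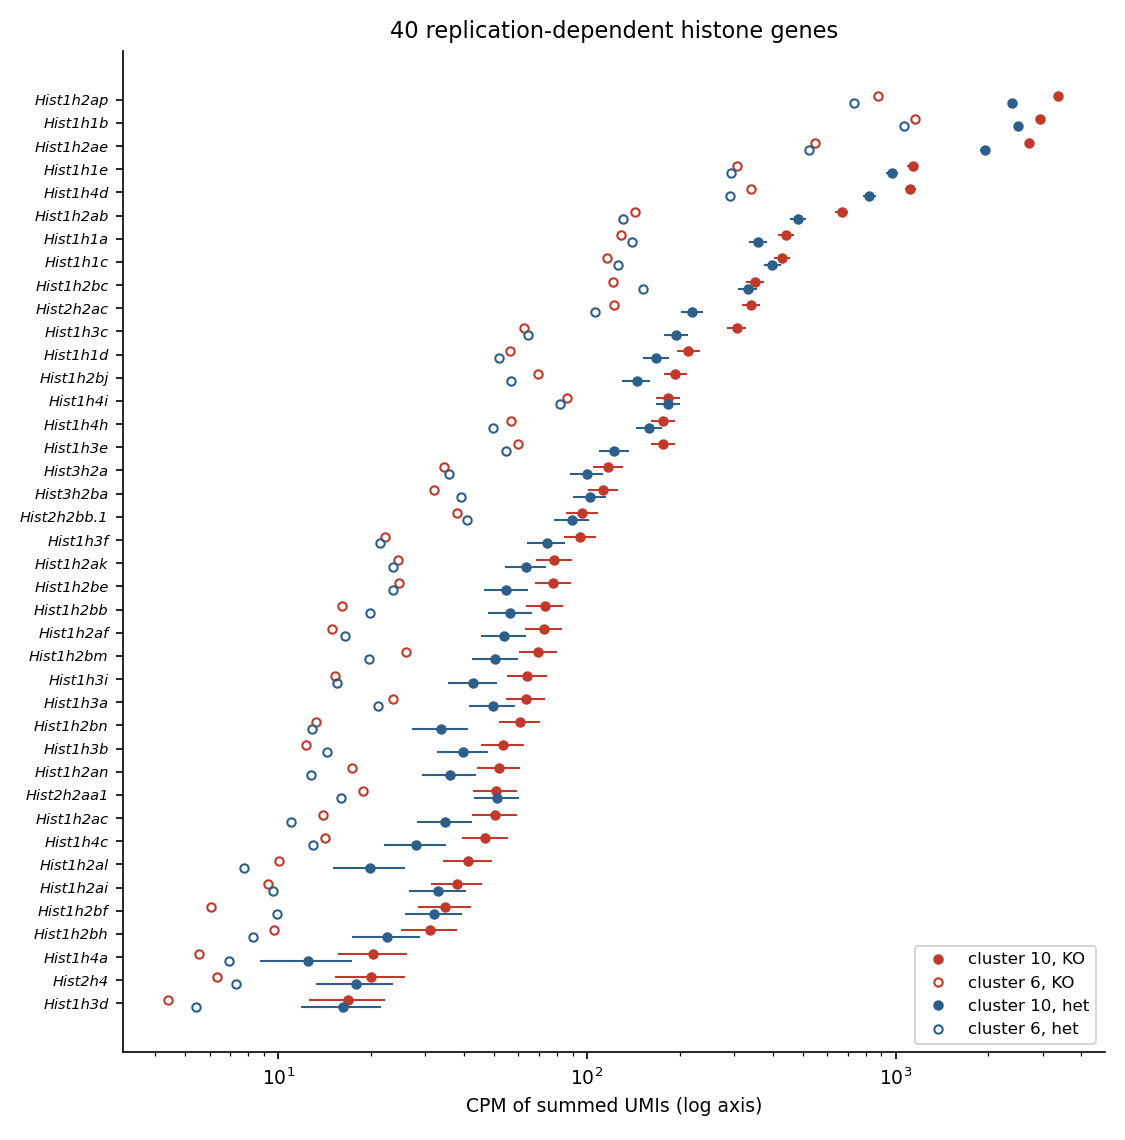
CPM (log axis) of 40 replication-dependent histone genes with at least 100 UMIs in cluster 10, for cluster 10 (filled) and cluster 6 (open), KO in red and het in blue, with exact 95% Poisson intervals as bars for cluster 10. Hist1h2ap, Hist1h1b and Hist1h2ae lead in both libraries, and KO points lie above het points for 38 of 40 genes.

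Fbxo5, the early mitotic inhibitor that holds back the anaphase-promoting complex during S and G2 phase, had 651 CPM in KO and 570 CPM in het cells of cluster 10, against 208 and 223 CPM in cluster 6 and 4.39 and 5.70 CPM in cluster 1. Its share of cells with a UMI after thinning each cell to 3000 UMIs was 80.2% in both libraries, against 34.3% and 37.5% in cluster 6 and 1.13% and 1.22% in the fibroblasts of cluster 0. Without thinning, an Fbxo5 UMI was seen in 99.6% of KO and 96.5% of het cells, against 65.9% and 72.4% of the cells of cluster 6. Of 9 histone genes outside the tandem clusters, 4 were at least 1.5-fold higher than in cluster 6 in both libraries (6.27% of all genes) and 0 were lower. H2afx, the variant phosphorylated at DNA breaks, had 1952 and 1866 CPM against 615 and 747 CPM in cluster 6, and H2afv, H3f3a and H3f3b were the other three. H2afz, with 5428 and 5134 CPM against 3712 and 3968 CPM, was under that fold. The genes that make and process histone mRNA were near their level in cluster 6. Of 19 such genes measured, 1 was at least 1.5-fold higher in cluster 10 than in cluster 6 and 0 were lower (6.27% and 6.82% of all genes), with median log2 ratios of -0.06 (KO) and -0.13 (het). Slbp, which binds the stem-loop, had 493 and 485 CPM in cluster 10, 328 and 311 CPM in cluster 6, and 106 and 99.2 CPM in cluster 1. Origin licensing genes showed the same near-equality with cluster 6 (1 of 25 higher, 1 lower, medians 0.00 and -0.19), as did replication fork genes (1 of 31 higher, 0 lower). Of 46 mitosis genes, 17 were at least 1.5-fold higher, against 6.27% of all genes, and 0 were lower (medians 0.78 and 0.50). Against the resting cells of cluster 1, 44 of 45 mitosis, 27 of 29 replication fork and 16 of 19 licensing genes were at least 1.5-fold higher in cluster 10, against 15.7% of all genes.

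The cells differed in their shares of licensing and mitosis transcripts. Cells of each library were placed in 5 equal bins by the rank of their mitosis UMI share minus the rank of their licensing share. Ccne2, the S-phase cyclin E2, had 147, 100, 56.0, 25.5 and 3.79 CPM over bins 1 to 5 in KO and 156, 79.0, 44.2, 23.3 and 2.29 CPM in het. Ube2c, the ubiquitin-conjugating enzyme of the anaphase-promoting complex, had 53.8 CPM in bin 1 and 2562 CPM in bin 5 in KO, and 83.0 and 3237 CPM in het. The bins were cut from related genes, so these opposed courses place the cells and are no finding. The histone share, which the bins did not use, had medians of 1.54%, 1.91%, 1.66%, 1.78% and 1.90% in KO and 1.37%, 1.49%, 1.23%, 1.41% and 1.40% in het. Leaving out the high other-lineage cells, the medians ran between 1.55% and 1.92% in KO and between 1.37% and 1.51% in het. All these cells were clustered on genes that include the histones, so their similar histone shares describe the cluster and are no finding. Slbp had 671 CPM in bin 1 and 214 CPM in bin 5 in KO, and 757 and 181 CPM in het. Of the 17 KO and 30 het cells called S, 15 and 28 were in bin 1. In that bin, the one with the highest Ccne2, 35 of 50 KO and 18 of 46 het cells were called G2M. In bin 2 the G2M call was given to 48 of 50 KO and 44 of 45 het cells.

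Single histones differed in their course over the bins. The het cells had 3181 CPM of Hist1h1b in bin 1 and 1604 CPM in bin 5, the KO cells 3178 and 2653 CPM. Hist1h2ap had 2901 CPM in bin 1 and 3302 CPM in bin 5 in KO, and 2559 and 2452 CPM in het, so it did not share the decline of Hist1h1b in het. Hist3h2a was higher toward the mitosis-rich end, with 56.7 CPM in bin 1 and 163 CPM in bin 5 in KO, and 58.6 and 211 CPM in het. With the high other-lineage cells left out, Hist1h1b had 3223 CPM in bin 1 and 1642 CPM in bin 5 in het, and 3206 and 2655 CPM in KO. Across cells, Spearman's rho between histone share and licensing share was -0.04 in KO (249 cells) and 0.16 in het (227 cells), and with mitosis share 0.29 and 0.24. Over the cells that were not other-lineage-high, these were -0.04 and 0.08 with licensing and 0.27 and 0.16 with mitosis (243 KO and 216 het cells). With total UMIs per cell rho was -0.49 and -0.42, and -0.48 and -0.36 without those cells. These shares have the cell's total in common, and the correlations describe cells of 1 library each.

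**Figure D3:**
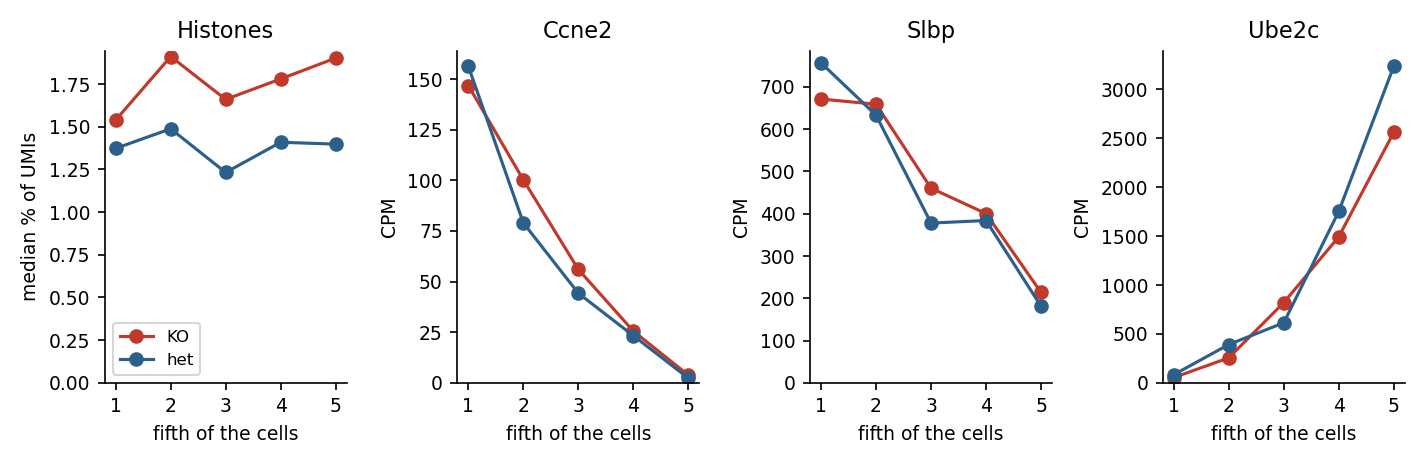
Histone share (median percent of UMIs per cell) and CPM of Ccne2, Slbp and Ube2c over 5 equal bins of cells, ordered from licensing-rich to mitosis-rich, for KO and het. Ccne2 and Slbp decline and Ube2c climbs over the bins, while the histone median stays between 1.54% and 1.91% in KO and between 1.23% and 1.49% in het.

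The B-lineage stage genes separate cluster 10 from the other cycling class. Dntt, the terminal transferase of pro-B cells, had 0.313 CPM in KO and 0.337 CPM in het cells of cluster 10, against 145 and 195 CPM in cluster 6. Igll1 had 33.2 and 38.4 CPM against 397 and 485 CPM, and Vpreb1 59.4 and 74.4 CPM against 671 and 868 CPM. After thinning, a Dntt UMI was seen in 0 of 248 KO and 0 of 227 het cells of cluster 10, which allows up to 1.48% and 1.61%. In cluster 6 it was seen in 19.4% and 21.7% of the cells. Without thinning, 1 KO and 1 het cell of cluster 10 had a Dntt UMI, against 22.0% and 29.5% in cluster 6. Igll1 was seen in 7.26% and 7.05% after thinning, against 45.3% and 51.8% in cluster 6 and 0.260% and 0.204% in the fibroblasts of cluster 0, and without thinning in 15.7% and 16.7%, against 62.5% and 64.6%. Cluster 10 was thus low in surrogate light chain and terminal transferase transcripts in both libraries. Rag1 was as low as in cluster 6 (32.9 and 34.3 CPM, against 29.9 and 35.0 CPM), while the small pre-B cells of cluster 1 had 402 and 523 CPM.

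Other B-lineage genes were higher than in cluster 6. Il7r, the interleukin-7 receptor, had 270 CPM in KO and 251 CPM in het cells of cluster 10, against 136 and 151 CPM in cluster 6, 272 and 271 CPM in cluster 1, and 9.32 and 9.99 CPM in cluster 2. Cd74, the MHC class II invariant chain, had 772 and 711 CPM against 189 and 208 CPM in cluster 6. Fcmr, the IgM Fc receptor, had 59.8 and 57.2 CPM against 6.45 and 9.08 CPM and ranked first among the genes higher than in cluster 6. Of the genes listed for maturing B cells, 11 of 14 were at least 1.5-fold higher than in cluster 6 and 1 was lower, against 6.27% and 6.82% of all genes. Of the NF-kB targets 9 of 11 were higher and 0 lower (Nfkbia, an inhibitor of NF-kB and itself a target, 594 and 570 CPM against 149 and 186 CPM). Pim1, a survival kinase, had 552 and 501 CPM against 130 and 147 CPM, and Cdkn2d, a cyclin-dependent kinase inhibitor, 430 and 418 CPM against 104 and 132 CPM. Against cluster 2 the maturing B genes were low: 15 of 18 were at least 1.5-fold lower in cluster 10 (16.8% of 5791 genes) and 0 higher. NF-kB targets were also lower than in cluster 2, with 7 of 13 at least 1.5-fold lower and 1 higher (17.3% of all genes). Against cluster 1, 6 of 11 NF-kB targets were lower (17.3% of 5514 genes) and 0 higher (15.7%). Ms4a1, which encodes CD20, had 144 and 93.3 CPM in cluster 10, against 16.3 and 26.3 CPM in cluster 6, 391 and 436 CPM in cluster 1, and 2830 and 2833 CPM in cluster 2. Summed over its cells, cluster 10 thus held most maturing B genes at levels between those of clusters 6 and 2. These sums mix cells that differed widely in Ms4a1, Cd74 and Fcmr, as given below.

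**Figure D4:**
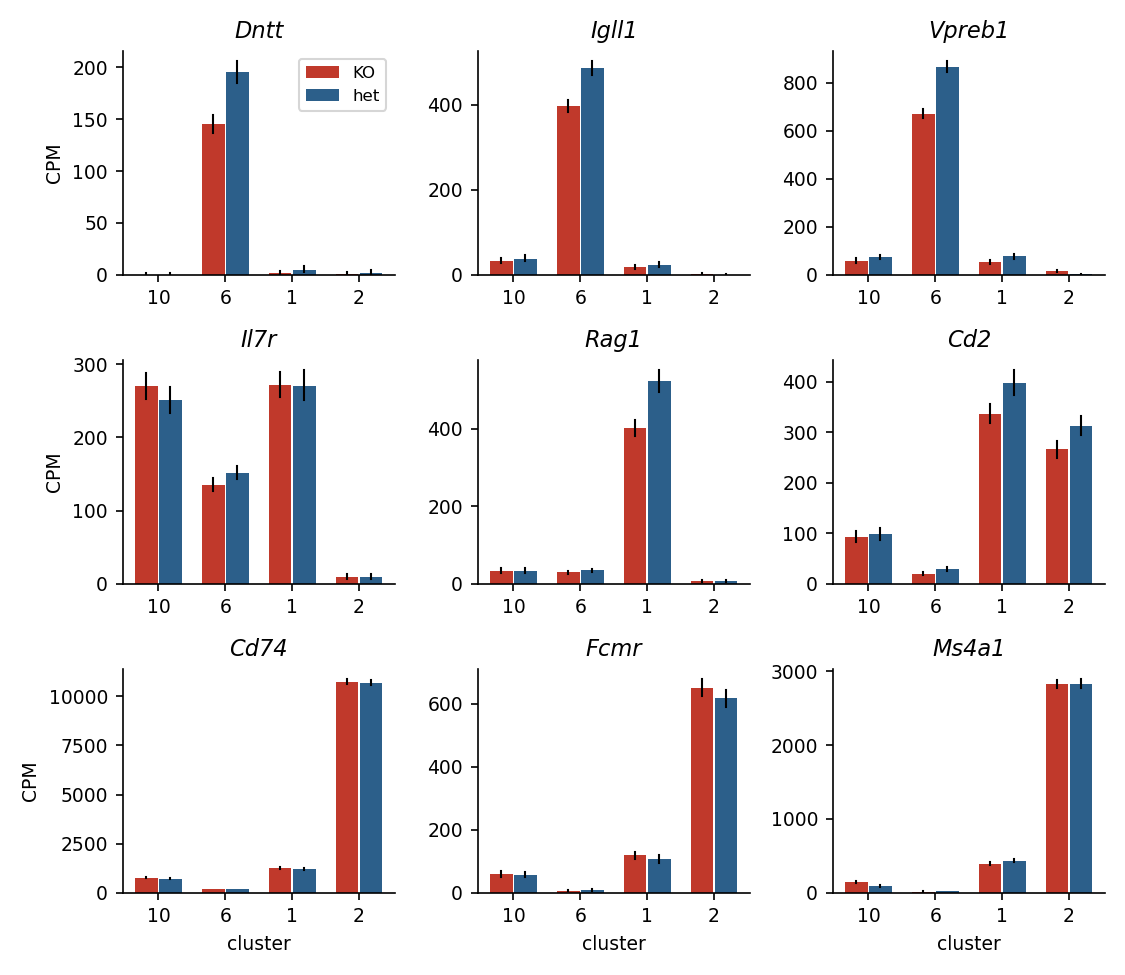
CPM of Dntt, Igll1, Vpreb1, Il7r, Rag1, Cd2, Cd74, Fcmr and Ms4a1 in clusters 10, 6, 1 and 2, KO bars left of het bars, with exact 95% Poisson intervals. Dntt, Igll1 and Vpreb1 were low in cluster 10 and high in cluster 6, Il7r was near its level in cluster 1, and Rag1 was high in cluster 1 alone of the 4 classes.

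Growth genes ran the other way against cluster 6. Of 15 ribosome biogenesis genes, 13 were at least 1.5-fold lower in cluster 10 than in cluster 6 in both libraries, against 6.82% of all genes, and 0 were higher, with median log2 ratios of -1.01 (KO) and -1.13 (het). Ncl, nucleolin, had 767 CPM in KO and 712 CPM in het cells of cluster 10, against 1599 and 1663 CPM in cluster 6. Npm1, nucleophosmin, had 985 and 947 CPM against 2625 and 2693 CPM. Nucleotide synthesis split by gene: 11 of 23 were lower, among them Ppat of purine synthesis (18.5 and 19.9 CPM against 58.7 and 51.5 CPM), and 1 was higher, Rrm2, the S-phase subunit of ribonucleotide reductase (781 and 728 CPM against 354 and 360 CPM). In glycolysis 5 of 13 genes were lower and 0 higher, with Ldha, lactate dehydrogenase, at 161 and 172 CPM against 564 and 553 CPM. Cells of cluster 6 had more UMIs each, and the part of depth in these contrasts was not tested. Against cluster 1, 14 of 16 nucleotide synthesis, 4 of 10 glycolysis and 2 of 14 ribosome biogenesis genes were higher (15.7% of all genes). Lower than in cluster 1 were 0, 1 and 0 of these genes (17.3%). Against cluster 2, 13 of 19, 3 of 11 and 0 of 14 were higher (17.3%), and 1 of each list was lower (16.8%).

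Cluster 10 was not uniform in stage. No Ms4a1 UMI was seen in 214 of 249 KO cells (85.9%) and 201 of 227 het cells (88.6%), while 25 KO cells (10.0%, interval 6.60 to 14.5%) and 19 het cells (8.37%, 5.12 to 12.8%) had 3 or more. This split, and the naming of Ltb, Ccr7, Myc and Bcl2 in it, were chosen after the values were seen, and the figures that follow are a description. In the cells with 3 or more Ms4a1 UMIs, Cd74 had 3768 CPM (KO) and 3718 CPM (het), against 342 and 286 CPM in cells with none. Fcmr had 409 and 388 CPM against 9.80 and 11.3 CPM, and Ltb, lymphotoxin beta, 452 and 297 CPM against 5.28 and 3.62 CPM. The Fcmr and Cd74 of the cluster thus came largely from a minority of its cells. Ccr7, a lymph node homing receptor, had 365 and 270 CPM against 68.2 and 49.9 CPM. Myc had 104 and 57.8 CPM against 4.15 and 3.22 CPM, and Bcl2 83.7 and 44.0 CPM against 3.77 and 6.44 CPM.

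Early B-lineage genes ran against Ms4a1 inside the cluster. Il7r had 60.9 CPM (KO) and 49.5 CPM (het) in cells with 3 or more Ms4a1 UMIs, against 299 and 282 CPM in cells with none, and 28.0% and 15.8% of them had an Il7r UMI, against 90.2% and 87.1%. Vpreb1 had 5.08 and 11.0 CPM against 67.5 and 87.3 CPM. Igll1 had 0 CPM (where 3 UMIs would be 7.61 CPM) and 2.75 CPM against 37.3 and 45.1 CPM. These cells were in cycle by the deposited calls (23 of 25 KO and 14 of 19 het cells in G2M) and by Mki67, the Ki-67 proliferation antigen (868 and 685 CPM, against 1113 and 1065 CPM). Their median histone share was lower, 1.07% in KO and 0.899% in het, against 1.84% and 1.42%. They were also deeper, with median UMIs of 15876 and 17680 against 11209 and 10934, and 0 KO and 3 het cells among them were high other-lineage cells. No doublet caller was run, and the part of doublets in this subset was not tested.

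**Figure D5:**
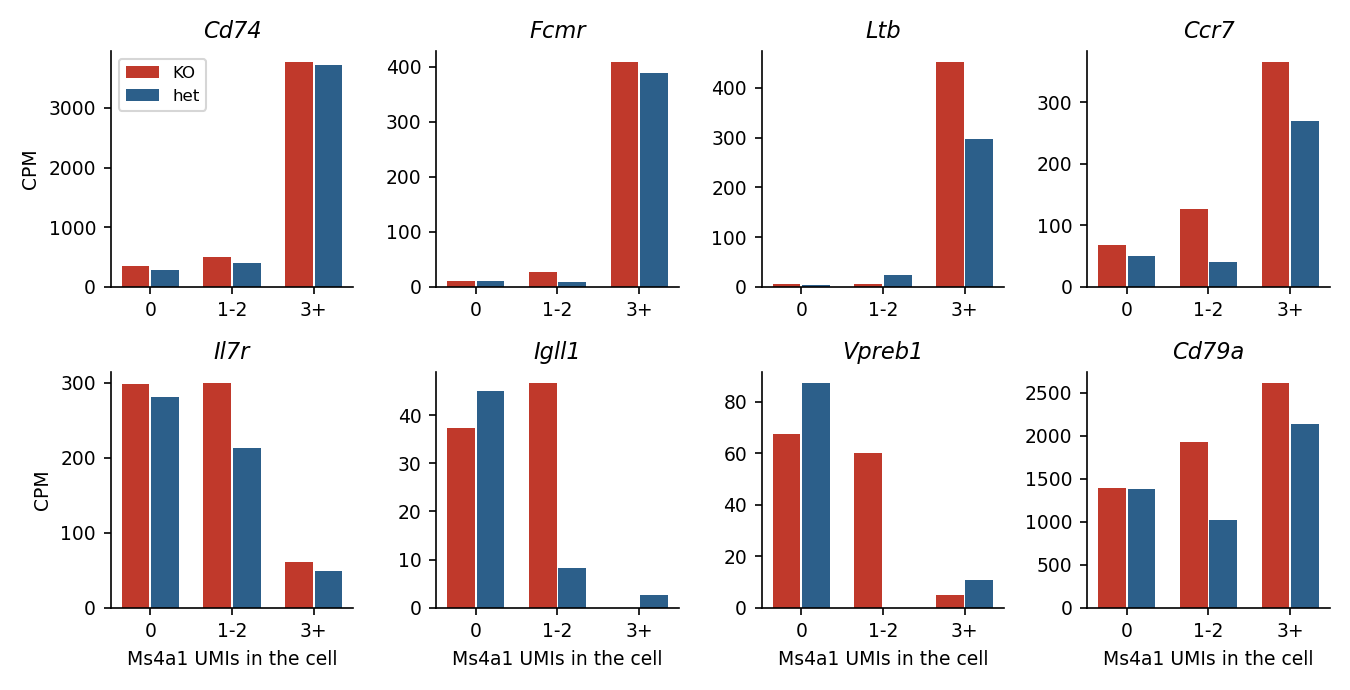
CPM of Cd74, Fcmr, Ltb, Ccr7, Il7r, Igll1, Vpreb1 and Cd79a in cells of cluster 10 with 0, 1 to 2, or 3 or more Ms4a1 UMIs, KO left of het. Cd74, Fcmr, Ltb and Ccr7 were higher, and Il7r, Igll1 and Vpreb1 lower, in the 25 KO and 19 het cells with 3 or more.

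The design sets cells of mice that lack IL-33 against those of heterozygous mice. Cluster 10 made up 3.78% (interval 3.33 to 4.27%) of all annotated KO cells and 3.82% (3.34 to 4.33%) of all het cells, a ratio of 0.990 (0.824 to 1.19). Of B-lineage cells (clusters 1, 2, 6, 10 and 16; 2169 KO and 1929 het cells) it made up 11.5% in KO and 11.8% in het, a ratio of 0.976 (0.812 to 1.17). The share of cluster 10 was thus within counting error in the 2 libraries. By the deposited sex label the ratio to all cells was 0.825 (0.641 to 1.06) among female-labelled and 1.29 (0.975 to 1.73) among male-labelled cells, both intervals holding 1. The female label was given to 117 of 249 KO cells (47.0%) and 145 of 227 het cells (63.9%) of cluster 10, and in 12544 of 12544 cells it matches whether Xist was detected.

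Histone transcripts were higher in KO than in het cells. Their summed level was 1.29-fold higher (1.28 to 1.31) in cluster 10, and 1.198-fold (1.18 to 1.21) without the high other-lineage cells (16508 CPM in KO and 13781 CPM in het). The same ratio was 1.07 (1.06 to 1.09) in cluster 6, 1.13 (1.07 to 1.19) in cluster 1, 1.21 (1.12 to 1.30) in cluster 2, and 1.10 (1.07 to 1.13) in the fibroblasts of cluster 0. Values above 1 were thus seen in each of these classes. Without its high other-lineage cells cluster 10 lay just below cluster 2, whose value keeps all its cells. The difference between clusters was not tested, and library preparation cannot be told apart from genotype. Per cell, 190 of 249 KO cells (76.3%) lay above the het median, and 41 of 227 het cells (18.1%) lay above the KO median. Without the high other-lineage cells these shares were 77.0% and 19.0%. In cluster 6 they were 47.3% and 55.5% over all cells, and 46.0% and 52.0% without such cells. Within the sex labels the summed levels were 15595 CPM (KO) and 12321 CPM (het) in female-labelled cells and 17002 and 13186 CPM in male-labelled cells, ratios of 1.27 (1.24 to 1.29) and 1.29 (1.26 to 1.32).

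By gene, 40 of the 65 histone genes had at least 100 UMIs over both libraries in cluster 10. The KO/het ratio was above 1 for 38 of them, against 49.9% of the 5584 genes so measured, and the median log2 ratio was 0.40, against -0.00 over all genes. At least 1.5-fold higher in KO were 6 of 40, against 0.734% of all genes, and 0 of 40 were 1.5-fold lower, against 4.14%. Without the high other-lineage cells 39 histone genes were measured, 35 of them above 1 (48.1% of 5208 genes) and 3 at least 1.5-fold higher (1.04%), with a median of 0.26. H3 genes summed to 821 CPM in KO and 577 CPM in het, a ratio of 1.42, and H2A genes to 7578 and 5432 CPM, a ratio of 1.40. H4 genes had a ratio of 1.28 (1609 and 1257 CPM), H2B genes of 1.203 (1161 and 965 CPM) and H1 genes of 1.17 (5149 and 4386 CPM). Without the high other-lineage cells the ratios were 1.33 for H3, 1.29 for H2A, 1.19 for H4, 1.13 for H2B and 1.09 for H1, in the same order.

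Among single genes, Hist1h2ap had a KO/het ratio of 1.41 (1.37 to 1.45), Hist1h2ae of 1.39 (1.34 to 1.44) and Hist1h1b of 1.18 (1.14 to 1.21). Hist1h3c, a histone H3 gene, had 306 CPM in KO and 195 CPM in het (1.57, 1.42 to 1.75). Hist2h2ac, an H2A gene, had 340 and 219 CPM (1.55, 1.41 to 1.71). Once the high other-lineage cells were left out, these ratios were 1.30 for Hist1h2ap, 1.29 for Hist1h2ae, 1.09 for Hist1h1b, 1.48 for Hist1h3c and 1.43 for Hist2h2ac, so that the last 2 were under 1.5-fold. The highest ratios belonged to rarer genes: Hist1h2al, with 41.3 and 19.9 CPM (2.08, 1.52 to 2.88), Hist1h2bn, with 60.7 and 33.7 CPM (1.80, 1.41 to 2.32), and Hist1h4c, with 46.9 and 27.9 CPM (1.68, 1.28 to 2.22). Without those cells these 3 had ratios of 1.89 (Hist1h2al), 1.66 (Hist1h2bn) and 1.59 (Hist1h4c). Hist1h1c, the linker histone also seen in resting cells, had a ratio of 1.08 (0.995 to 1.17), an interval that holds 1, and of 1.02 without those cells. The 2 genes not above 1 were Hist1h4i (0.999, and 0.914 without those cells) and Hist2h2aa1 (0.990, and 0.901). Fbxo5 had a ratio of 1.14 (1.07 to 1.22), and of 1.05 (0.987 to 1.13) without those cells.

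Genes tied to histone supply and to the cycle stayed near 1. Of 9 histone genes outside the tandem clusters the median log2 KO/het ratio was 0.06, and -0.03 without the high other-lineage cells. It was 0.10 for histone mRNA synthesis and processing (Slbp 493 CPM in KO and 485 CPM in het; Asf1b, a histone chaperone, 248 and 208 CPM), and 0.03 without those cells. Origin licensing had 0.10 and 0.01 without those cells, replication fork 0.14 and 0.05, and mitosis 0.06 and -0.05. Maturing B genes had 0.06 and -0.01, and pro-B and pre-B receptor genes 0.02 and -0.07. In these lists 2 genes were at least 1.5-fold higher in KO: Nrgn, neurogranin (65.1 and 42.4 CPM, 1.53), and Ms4a1 (144 and 93.3 CPM, 1.54, 1.33 to 1.80). Ms4a1 UMIs came from 35 KO and 26 het cells, and among male-labelled cells its ratio was 0.922. When the high other-lineage cells were left out, Nrgn was under 1.5-fold (1.40), Ms4a1 (1.73) and Ltb (62.1 and 34.6 CPM, 1.80) were above it, and Il2ra, the interleukin-2 receptor alpha chain, was at least 1.5-fold lower in KO (14.9 and 22.9 CPM, 0.649). Ltb was high in the few cells with 3 or more Ms4a1 UMIs (25 KO and 19 het cells). With no cell left out, it had 452 and 297 CPM there, against 5.28 and 3.62 CPM in cells with no Ms4a1 UMI. Whether its ratio reaches beyond that subset was not tested.

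Genes known from other lineages led those lower in KO, of which there were 231 with all cells and 29 without the high other-lineage cells. S100a9, a granulocyte protein, had 20.02 CPM in KO and 1185 CPM in het, with 2814 of its 3519 het UMIs in 1 cell. Apoe, high in macrophages, had 75.7 and 648 CPM, and Dcn, the fibroblast proteoglycan decorin, 63.8 and 417 CPM. All 18 of 18 myeloid markers had a UMI in het, summing to 3368 CPM, and 17 of 18 in KO, summing to 193 CPM with Adgre1 at 0. Without the high other-lineage cells the myeloid sums were 184 and 143 CPM. Stromal markers, 14 of 14 present in each library, summed to 1452 CPM in KO and 3815 CPM in het, and to 1057 and 622 CPM without those cells. The 11 het cells held 91.2% of the other-lineage UMIs of het cells in cluster 10, up to 9683 in 1 cell, and the 6 KO cells held 27.1%. Of these het cells 6 had under 0.1% histone UMIs and 4 had UMIs of 3 or fewer of the 9 B markers, against 0 KO cells in both counts. T, NK and innate lymphoid markers, of which Cd3e, Thy1, Klrb1c and Gzma were at 0 in both libraries, summed to 286 CPM in KO and 258 CPM in het, of which all but 15.9 and 7.74 CPM was Il7r, a gene of B precursors as well.

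With those cells left out, 54 genes were at least 1.5-fold higher in KO (1.04% of 5208) and 29 lower (0.557%). Fos, an immediate early gene, had 107 CPM in KO and 54.8 CPM in het (1.96), Nr4a1, another, 46.9 and 24.4 CPM (1.92), and Cd83, an activation antigen of B cells, 29.1 and 12 CPM (2.42, 1.60 to 3.75). With all cells, Cd83 UMIs came from 31 KO and 22 het cells. In KO 19 of its 90 UMIs were in 1 cell, and in het 16 of 64. With all cells the Fos ratio was 0.544, so its direction rests on the 11 het and 6 KO cells. Of 17 immediate early genes measured, 10 were above and 7 below 1, with a median log2 ratio of 0.06, and Fos and Nr4a1 were the 2 at least 1.5-fold higher. With all cells, 14 of 18 were below 1, 4 of them at least 1.5-fold, with a median of -0.22. Ms4a1 had 149 and 86.0 CPM (1.73) in this comparison. Stromal transcripts led the higher genes, among them H19 (52.7 and 19.5 CPM, 2.70) and Col3a1, a fibrillar collagen (110 and 58.2 CPM). Col1a1, another stromal transcript, had a UMI after thinning in 61.3% of KO and 48.0% of het cells of cluster 10. In the small pre-B cells of cluster 1, which should lack it, these shares were 89.1% and 73.4%. Without thinning, Col1a1 was seen in 95.6% of KO and 86.8% of het cells, against 95.2% and 84.1% of the cells of cluster 1. The source of the stromal transcripts in these cells was not tested. Among the lower genes was Ifi27l2a, an interferon-induced gene, with 156 CPM in KO and 261 CPM in het (0.598, 0.532 to 0.673), and 153 and 245 CPM with all cells. Ifi27l2a was also lower in KO in cluster 6 (85.2 and 99.8 CPM), cluster 1 (251 and 295 CPM) and cluster 2 (505 and 551 CPM).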

How the data were processed

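Droplet libraries of 1 KO and 1 het pool were deposited as whole-number UMI counts, for which the submitters' processing notes name Cell Ranger 3.0.2 and mm10. The gene annotation and aligner settings used for counting are not stated in these sources. The deposited annotation gives cluster, phase calls, the sex label, S and G2M score and percent of mitochondrial UMIs per cell, as the authors computed them. Counts of cluster members were summed per library and scaled to CPM. The members and gene lists were chosen with earlier results of these data known. Intervals are exact: Poisson for sums, Clopper-Pearson for shares, conditional binomial for ratios. Ratios need 100 UMIs over the 2 groups compared, and log2 ratios between clusters, with their calls, medians and rankings, have 5 CPM added to both sides, which lowers the size of low genes' ratios; KO/het ratios have nothing added. Named genes are the cluster markers, all replication-dependent histones, members of the gene lists, and the 12 leading genes of each contrast. Clusters were compared in each library, with KO over het within cluster 10. Cells were thinned to 3000 UMIs for shares, which left out 1 KO and 0 het cells of cluster 10, and 19 KO and 10 het cells of cluster 6. No cell was filtered and no doublet caller was run. Alternatives were other UMI minimums, folds, scalings and cell subsets. The summing was tested on simulated counts. Python 3.11.15, numpy 2.4.6, scipy 1.17.1 and pandas 2.3.3 were used. A B cell marker of the planned list is not reported here.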

Additional observations from a re-analysis of the deposited data

Results flagged for a closer look

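Some KO/het values in cluster 10 pointed in opposite directions in female-labelled and male-labelled cells. None of these differences was tested, since each sex label holds cells of 1 library per genotype. The share of cluster 10 among B-lineage cells had a KO/het ratio of 0.833 (0.647 to 1.07) by the female label. By the male label it was 1.22 (0.921 to 1.63), and both intervals hold 1. Ptgds, prostaglandin D synthase of stromal cells, had ratios of 3.58 and 0.785. For S100a9 they were 0.0104 and 1.45, and for S100a8, its partner, 0.0115 and 1.93. Hist2h4, a histone H4 gene, had 1.58 (0.927 to 2.73) and 0.715 (0.409 to 1.26). Hist1h3d, a histone H3 gene, had 0.739 (0.403 to 1.32) and 1.504 (0.786 to 3.03). Each interval of these histone genes holds 1. The median log2 KO/het ratio of glycolysis genes was -0.19 by the female label and 0.17 by the male label. Of the 3519 het S100a9 UMIs, 2814 were in 1 cell.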

How the results depend on the processing

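No paired analysis was possible because each genotype has 1 library and no result comes from a test. Of the main values under each alternative, 62 kept their direction and size and 25 moved. Over single genes and lists, 766 kept them, 186 moved and 33 changed sign. A change of sign was counted only for values at least 1.5-fold from no change. The count of genes at least 1.5-fold lower in KO in cluster 10 (231) was 59 in male-labelled cells, 35 without the 5% of cells with the most UMIs, 29 without the high other-lineage cells, 141 by the mean of per-cell CPM, 1244, 46 and 3891 at minimums of 20, 300 and 1 UMIs, and 133 at 2-fold. The count higher in KO (41) was 302, 5 and 1786 at those minimums and 5 at 2-fold. The median log2 KO/het ratio of origin licensing genes (0.10) was 0.01 without the deepest cells and 0.01 without the high other-lineage cells, that of mitosis genes (0.06) was -0.02, -0.05 and, by per-cell means, -0.05, and that of stromal markers (-0.91) was 0.79, 0.92 and 0.00. Scaled to UMIs outside histone, mitochondrial, ribosomal protein and immunoglobulin genes, the median histone share was 2.47% in KO and 1.92% in het. Among male-labelled cells the ratio of cluster 10 shares was 1.29, the histone median log2 ratio was 1.85 to cluster 6 in KO (1.60 over all cells), 4.62 in KO and 4.16 in het to cluster 1 (3.71 and 3.53), and 4.69 and 4.35 to cluster 2 (3.78 and 3.56), over 27, 18 and 18 genes that met the minimum.

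Among single genes, crossing of 1 was counted only where the KO/het ratio was at least 1.5-fold from 1. That ratio was taken over all cells or, for genes ranked without the high other-lineage cells, without those cells. Hist1h4h, nearer 1, is thus not counted, with ratios of 1.28 (1.09 to 1.52) by the female and 0.898 (0.744 to 1.09) by the male label. The genes so counted were Ms4a1 (0.922), Ptgds (0.785), S100a9 (1.45) and S100a8 (1.93) by the male label. Without the deepest cells they were S100a9 (1.60), S100a8 (1.52), Dcn (1.52), Cd63 (1.01) and Mgp (1.73). Without the high other-lineage cells they were S100a9 (1.41), S100a8 (1.499), Apoe (1.18), C1qb (1.42), Dcn (2.04), Lyz2 (2.02), Cdkn1c (1.09), Cd63 (1.64) and Mgp (1.79). Ratios above 1 without those cells were below 1 with all cells for H19 (0.558), Igfbp5 (0.612), Fos (0.544), Col3a1 (0.497), Igf2 (0.645), Sparc (0.245), Dcn (0.153), Ptn (0.294) and Mgp (0.210). Also without them, Ms4a1 had 0.871 and Nr4a1 0.940 by the male label, and Mbp 1.11 by the female label. The causes were not tested beyond the cells left out. A planned limit of 3 other-lineage UMIs left 1 KO and 3 het cells and was not used. Ratios of genes near the minimum of 100 UMIs are limited by counting error, and genotype, animals, sort and preparation cannot be told apart with 1 library per genotype.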
